A study of Mus musculus with 23 samples.

Results

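The 10 core genes of the canonical Wnt pathway, Ctnnb1, Lrp6, Apc, Axin1, Axin2, Gsk3b, Tcf7, Lef1, Tcf7l1 and Tcf7l2, were examined for RNA contacts of the chromatin protein CTCF. They were chosen by name from 55413 annotated genes, of which 13608 held at least 1 site in any list. A site is 1 nucleotide that PureCLIP called as crosslinked, and it was counted for a gene when it lay inside the gene's GENCODE body in mm10 on the gene's own strand. The data are iCLIP2, in which UV light joins protein to RNA and reverse transcription stops at the joined base.

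Mouse E14 embryonic stem cells (ESC) and neural progenitors (NPC) derived from them over 2 days in N2B27 were used. All 6 groups carried the CTCF-AID2 degron, with OsTIR1(F74G) at Rosa26, and received 1 µM 5-Ph-IAA and 1 µg/mL doxycycline for 24 hours, so that endogenous CTCF was removed and a Flag-Halo rescue CTCF was expressed from the Tigre locus. ESC WT and NPC WT expressed full-length rescue CTCF, ESC ΔZF1 and NPC ΔZF1 a rescue that lacked part of zinc finger 1, and these 4 groups received 400 mJ/cm2 of UV at 254 nm. ESC noXL and NPC noXL were WT rescue cells without UV, so the ΔZF1 line had no control of its own. Each rescue line was 1 clone. ESC medium held leukemia inhibitory factor, 1 µM PD0325901 and 3 µM CHIR99021, an inhibitor of the Gsk3 kinases that this pathway acts through. Medium and cell type therefore cannot be told apart in any NPC to ESC comparison.

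Wnt proteins bind Frizzled receptors together with the co-receptors Lrp5 and Lrp6. Without this signal a cytoplasmic complex built on the Axin scaffolds and Apc lets Gsk3 kinases mark β-catenin, the product of Ctnnb1, for destruction. With it, β-catenin enters the nucleus and joins the DNA-binding factors Tcf7, Lef1, Tcf7l1 and Tcf7l2. In mouse ESCs Tcf7l1 is known mainly as a repressor of pluripotency genes that β-catenin relieves, and Axin2 is a feedback target widely used as a reporter of the pathway.

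The 23 libraries, 3 in NPC WT and 4 in every other group, had been merged into 1 list per group. Values therefore carry no replicate error, and conditions could not be tested against each other. Ranges in parentheses are 95% intervals, exact Poisson for counts, Wilson for shares and derived from these for ratios and differences, and they cover counting error only. Read depth is unknown. The lists held 107227 to 451137 sites, and 94.0 to 96.7% of them lay in genes. The ESC markers Esrrb and Zfp42 held 460 and 164 sites in ESC WT against 0 and 11 in NPC WT. Of the neural markers, Nes held 2 sites in ESC WT and 28 with WT in NPCs, while Sox1 and Pax6 were at 0 in all 4 UV lists.

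Single places recurred across the lists in few members. Only 5 places in the 10 genes had a site within 5 nt in all 4 UV lists, and 4 of these also had one in a noXL list. Their RNA sequences, 21 nt read 5′ to 3′ from the GRCm38 reference with the called base in capitals, are shown because they carried the highest-scoring sites of 3 members.
Ctnnb1 exon 1, 5′ UTR, chr9:120933476-120933496, plus strand: cggcgccaucUuaagcccucg
Tcf7l1 intron 3, chr6:72788191-72788211, minus strand: cguaagugucAguccggccgu
Gsk3b intron 2, chr16:38157997-38158017, plus strand: guaauuuacaUccugccccua
Lrp6 exon 1, coding, chr6:134566650-134566670, minus strand: gccugcagcuUcugcgugcug
Lrp6 exon 11, coding, chr6:134480540-134480560, minus strand: guuuauguauUggacugagug

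The Ctnnb1 place held the best site of that gene in both WT lists, with PureCLIP scores of 104 in ESCs and 148 in NPCs, and its scores without UV were 89.3 in ESC noXL and 87.1 in NPC noXL. The Tcf7l1 place, at an adenosine 10 nt from a splice site, scored 73.1 with WT in ESCs, 60.2 with WT in NPCs and 113 in NPC noXL. The Gsk3b base lay 1 nt upstream of the annotated start of Gm25617, a small nucleolar RNA gene in intron 2, and scored 56.9 in ESC WT, 44.5 in NPC WT and 26.9 in ESC noXL. These 3 places were thus called with and without crosslinking. The score is not scaled to depth, so its size is not compared between lists. The place in Lrp6 exon 11 was the one of the 5 without a noXL site. Its scores lay at percentile 85.1 of the ESC WT list, 52.8 of NPC WT, 48.7 of NPC ΔZF1 and 15.8 of ESC ΔZF1.

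Other strong sites of the co-receptor lacked any noXL site within 5 nt. Both are shown as the best Lrp6 sites of the WT lists.
Lrp6 exon 23, 3′ UTR, chr6:134450737-134450757, minus strand: caccgggacaUguaaauacac
Lrp6 exon 10, coding, chr6:134484258-134484278, minus strand: cgacagguuuUgguauggaaa
The exon 23 site scored 25.5 in ESC WT, 9.54 in NPC WT and 11.3 in NPC ΔZF1. The exon 10 site scored 19.5 in NPC WT and had no partner within 5 nt in either ΔZF1 list.

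The best WT sites of the feedback target and of the sparse factors, shown to set their bases beside those above, also had no noXL site within 5 nt.
Axin2 exon 2, coding, chr11:108923550-108923570, plus strand: accaggauggUgcauaccucu
Axin1 exon 2, coding, chr17:26142963-26142983, plus strand: cugcauuccuUacuggaugac
Axin1 exon 1, 5′ UTR, chr17:26138705-26138725, plus strand: gcgggggcgcUcaggccuggg
Tcf7 exon 6, coding, chr11:52257728-52257748, minus strand: aucccucaccCggccauugug
Tcf7 exon 10, 3′ UTR, chr11:52253824-52253844, minus strand: uaucuucuguUgcccuccuuc
Lef1 exon 1, 5′ UTR, chr3:131111107-131111127, plus strand: accgguguccUcgaagcacag
The Axin2 site scored 15.2 in ESC WT and was found in that list alone. The 1 Axin2 site in NPC WT, not shown, lay in exon 2 at a guanosine and scored 0.0518, at percentile 1.99 of that list. The first Axin1 site scored 4.14 in ESC WT, and the 5′ UTR site 13.0 in NPC WT. The Tcf7 sites scored 15.1 in ESC WT, at a cytidine, and 7.36 in NPC WT. The Lef1 site scored 4.33 in NPC WT. The best Apc sites, both at a uridine and without a noXL partner, lay in intron 1 with a score of 22.5 in ESC WT and in exon 16 with 11.0 in NPC WT.

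Ctnnb1 (plus strand of chromosome 9, 120929216 to 120960507) held 173 ESC sites with WT (148 to 200.8), 73 with ΔZF1 (57.2 to 91.8) and 48 without UV (35.4 to 63.6). The NPC counts were 95 with WT (76.9 to 116), 77 with ΔZF1 (60.8 to 96.2) and 43 without UV (31.1 to 57.9). WT was highest in both cell types, but in NPCs its interval overlapped that of ΔZF1. These raw counts, like those of the genes below, are not scaled to the size of the lists. Intron 1 of its principal transcript, 16.5 kb long, took 95 of the ESC WT sites and 48 of the NPC WT sites. Sites per kb were still higher in exons, at 13.7 (10.7 to 17.2) against 3.91 in introns in ESC WT.

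Lrp6 (minus strand of chromosome 6, 134446476 to 134566965) had most of its sites in exons. With WT 163 sites were found in ESCs (139 to 190) and 118 in NPCs (97.7 to 141), with ΔZF1 73 and 75, and without UV 63 and 42. In ESC WT 89.6% of its sites were exonic, 92 of them in coding sequence and 46 in the 3′ UTR. The share was lower in NPCs with either protein. With WT it was 72.0% in NPCs, a difference from ESCs of -17.5 points (-27.0 to -8.31). With ΔZF1 it was 89.0% in ESCs and 68.0% in NPCs, a difference of -21.04 points (-33.4 to -7.84). Without UV it was 73.0% in ESC and 57.1% in NPC, a difference of -15.9 points (-33.5 to 2.40). Over all genic sites the exon share was higher in NPCs for WT, 66.6% against 73.1%, but lower for ΔZF1, 68.1% against 60.4%, and without UV, 59.8% against 57.4%. Intron 7 held 14 Lrp6 sites with WT in NPCs and 7 with ΔZF1, against 2 with WT and 0 with ΔZF1 in ESCs. Without UV it held 4 sites in ESCs and 0 in NPCs.

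The scaffold and kinase genes of the destruction complex split into well covered and sparse members. Apc (plus strand of chromosome 18, 34220924 to 34322552) held 181 ESC sites with WT (156 to 209), 90 with ΔZF1 (72.4 to 111) and 79 without UV (62.5 to 98.5). Its NPC lists held 89 sites with WT, 81 with ΔZF1 and 46 without UV. In ESCs the ΔZF1 and noXL intervals overlapped, and in NPCs those of WT and ΔZF1. Exon 16, which holds most of its coding sequence, took 79 of the WT sites in ESCs and 36 in NPCs, and intron 1 took 57 and 35.

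Gsk3b (plus strand of chromosome 16, 38089001 to 38246084) held 124 ESC sites with WT (103 to 148), 60 with ΔZF1 (45.8 to 77.2) and 66 without UV (51.0 to 84.0). The NPC counts were 59 with WT (44.9 to 76.1), 67 with ΔZF1 (51.9 to 85.1) and 45 without UV (32.8 to 60.2). In raw counts only WT in ESCs stood clear of the other lists of its cell type, since the 3 NPC intervals overlapped. ESC WT was also the largest ESC list, with 429119 genic sites against 217770 with ΔZF1 and 150821 without UV. Scaled to these totals, the log2 ratio of WT to noXL was -0.61 (-1.03 to -0.17), and that of ΔZF1 to WT -0.06 (-0.51 to 0.37). Untranslated exon sequence held most of the exonic Gsk3b sites, 41 in the 3′ UTR and 16 in the 5′ UTR against 20 in coding sequence in ESC WT. Only 1.26 kb of the 8.30 kb principal transcript of Gsk3b is coding, so these counts do not show a higher density in the UTRs. All 30 of its ESC WT sites in the 53.6 kb intron 1 lay before the midpoint of that intron, as did 22 of 23 sites in ESC noXL and 17 of 19 in NPC noXL.

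The Axin scaffolds held few sites. Axin1 (plus strand of chromosome 17, 26138688 to 26195811) held 7 ESC sites with WT (2.81 to 14.4), 18 with ΔZF1 (10.7 to 28.4) and 9 without UV (4.12 to 17.1), and its NPC counts were 10, 11 and 10. Axin2 (plus strand of chromosome 11, 108920349 to 108950783) held 15 ESC sites with WT (8.40 to 24.7), 3 with ΔZF1 and 11 without UV (5.49 to 19.7), and its NPC counts were 1, 4 and 5. For both genes the WT and noXL intervals overlapped in each cell type, so that no excess over the background was detectable at these counts. Every WT site of both genes was exonic.

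Among the nuclear factors, Tcf7l1 held the most sites of all 10 genes. It lies on the minus strand of chromosome 6, 72626378 to 72789254. ESC counts were 253 with WT (223 to 286), 91 with ΔZF1 (73.3 to 112) and 149 without UV (126 to 175), and NPC counts 162 with WT (138 to 189), 84 with ΔZF1 (67.0 to 104) and 98 without UV (79.6 to 119). In ESCs the noXL list held more sites than the ΔZF1 list, with intervals that did not overlap, and in NPCs these 2 intervals overlapped. Only 13.0% of the ESC WT sites and 8.64% of the NPC WT sites were exonic. Intron 3, which is 139 kb long, took 218 of the ESC WT and 147 of the NPC WT sites, and 96.8% (93.5 to 98.4) and 91.8% (86.3 to 95.3) of these lay before its midpoint. Without UV these shares were 84.1% (76.8 to 89.5) in ESC and 95.3% (88.6 to 98.2) in NPC.

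Tcf7 (minus strand of chromosome 11, 52252371 to 52283014) held 29 ESC sites with WT (19.4 to 41.6), 6 with ΔZF1 and 14 without UV (7.65 to 23.5), and its NPC counts were 17, 13 and 6. All WT sites were exonic, 20 of the 29 in the 3′ UTR. However, 26 of the 29 also lay inside Gm26551, a long non-coding RNA gene on the same strand, so they cannot be assigned to Tcf7 alone. Lef1 (plus strand of chromosome 3, 131110471 to 131224356) held 0 sites in all ESC lists, and its NPC counts were 3 with WT, 1 with ΔZF1 and 3 without UV. Tcf7l2 (plus strand of chromosome 19, 55741820 to 55933654) held 0 sites in all ESC lists, and its NPC counts were 0, 1 and 3. A count of 0 allows up to 3 sites, so contacts of these 2 RNAs were not detectable in ESCs. The 10 genes held no antisense site in any list except 1 in Tcf7l2 in ESC noXL.

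The 300 nt stretch of each gene with most ESC WT sites was chosen for its count and is given as a description. In Ctnnb1 it spanned exon 2 and held 9 sites in ESC WT, 5 of them in that exon, 3 in intron 1 and 1 in intron 2, and 0 in ESC noXL. In Lrp6 it began in exon 11 and held 8 and 0, and in Apc it began in exon 16 and held 9 and 1. In Gsk3b it began in the 5′ UTR and held 7 ESC and 6 NPC sites with WT, against 1 in each noXL list. These stretches held 5.20, 4.91, 4.97 and 5.65% of the ESC WT sites of the 4 genes. In Gsk3b the stretch with most NPC WT sites overlapped it and held 7, or 11.9% of its NPC WT sites. The share was 3.16% in Tcf7l1, but 27.6% in Tcf7, 26.7% in Axin2 and 42.9% in Axin1, the genes with few sites.

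**Figure D1:**
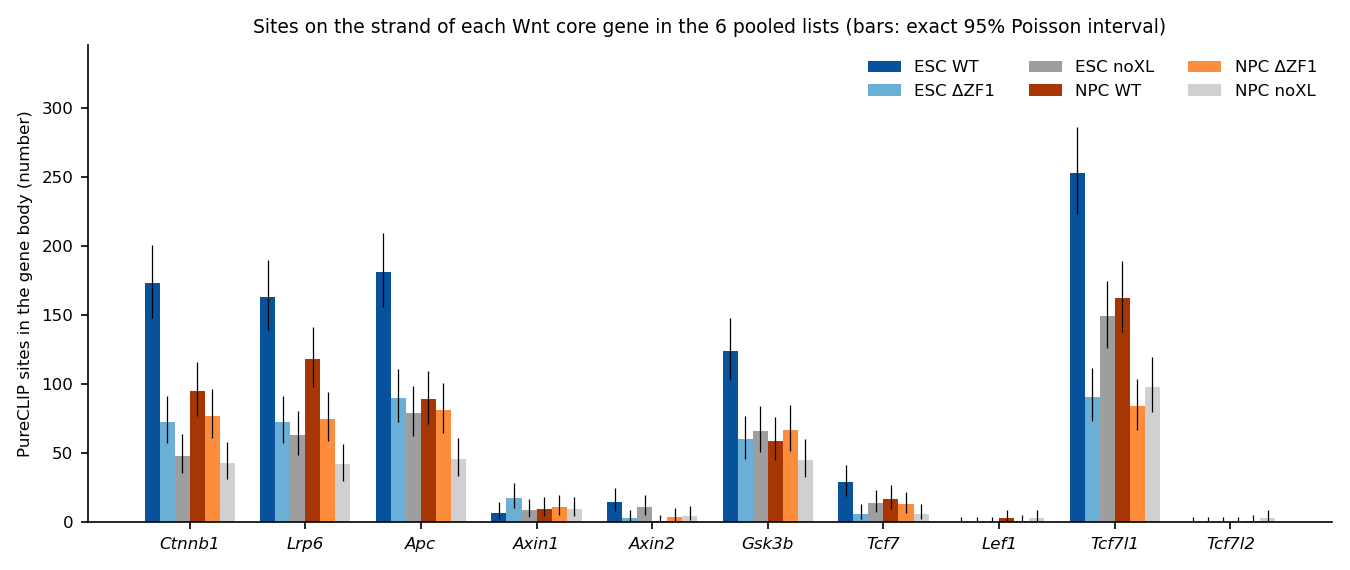
Number of PureCLIP sites (y axis) on the strand of each of the 10 genes (x axis) in the 6 pooled lists, with exact 95% Poisson intervals as bars. Tcf7l1 reached 253 sites in ESC WT, the Axin genes stayed at 18 or fewer, and Lef1 and Tcf7l2 at 3 or fewer.

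**Figure D2:**
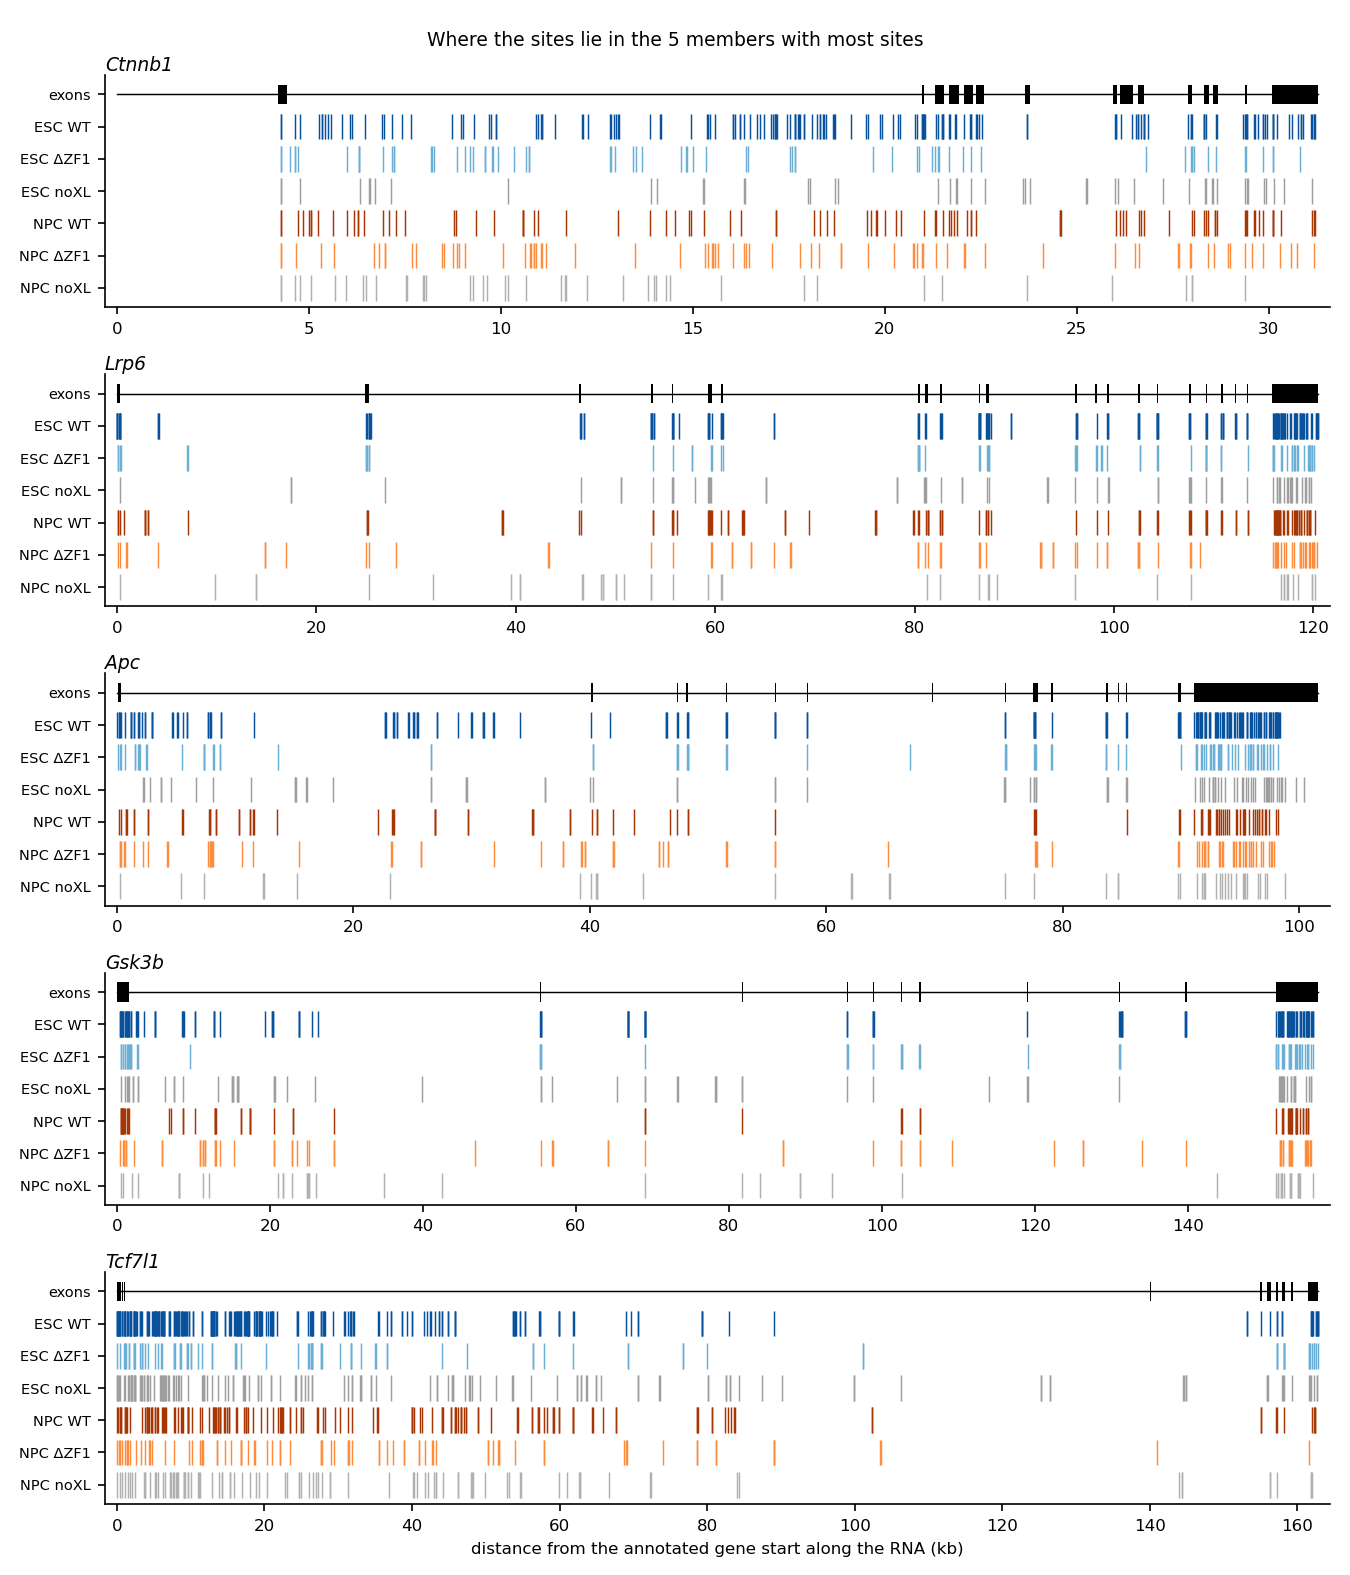
Positions of single sites (ticks, 1 row per list) along Ctnnb1, Lrp6, Apc, Gsk3b and Tcf7l1 in kb from the annotated gene start, with exons of the principal transcript as black boxes. Lrp6 sites sat mainly on exons, and Tcf7l1 sites mainly before the midpoint of intron 3.

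To compare levels between genes of different length, they were ordered by sites per kb of exon. In ESC WT the order was Ctnnb1 at 13.7, Tcf7 at 11.0 (7.40 to 15.9), Lrp6 at 10.7 (9.02 to 12.6), Tcf7l1 at 8.41 (5.79 to 11.8), Gsk3b at 7.83 (6.18 to 9.79) and Apc at 7.45 (6.17 to 8.90), then Axin2 at 2.72 (1.52 to 4.49) and Axin1 at 1.83 (0.735 to 3.77). The intervals of neighbours overlapped throughout except between Apc and Axin2. The place of Tcf7 rests on 29 sites, 26 of them shared with Gm26551, and cannot be assigned to Tcf7 alone. Exon density exceeded intron density 67.1 times in Lrp6, 24.5 times in Gsk3b, 10.4 times in Apc, 6.08 times in Tcf7l1 and 3.50 times in Ctnnb1. Without UV the ESC ratios were 21.1 in Lrp6, 15.0 in Gsk3b, 9.66 in Apc, 5.57 in Tcf7l1 and 3.91 in Ctnnb1, so an exon excess was present in the background too and was close to that of WT in the last 3 genes. These densities join contact per molecule with the amount of RNA, and fewer cells that express a gene cannot be told apart from less RNA per cell.

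The base under the sites separated the UV lists from the noXL lists. Of the member sites, 62.0% were at a uridine in ESC WT (58.9 to 65.1), 50.2% in ESC ΔZF1 (45.4 to 55.0) and 32.1% in ESC noXL (27.9 to 36.6). The NPC shares were 66.4% (62.4 to 70.2), 58.9% (54.1 to 63.6) and 25.2% (20.7 to 30.4). The base before the site was also uridine in 44.9 to 49.6% of cases in the UV lists, against 24.6 and 25.2% without UV. By part of the gene, uridine was under 64.3% of exonic and 59.5% of intronic sites in ESC WT. For all genic sites the uridine shares were 60.6, 49.2 and 28.3% in ESC and 64.6, 59.0 and 27.9% in NPC, and the interval of the 10 genes held each of these 6 values.

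Apc stood at one end of the range for ΔZF1 in ESCs. Its uridine share was 59.1% with WT (51.8 to 66.02), 34.4% with ΔZF1 (25.4 to 44.7) and 32.9% without UV (23.6 to 43.9), a difference of 24.7 points between the rescue proteins (12.1 to 36.0). In Lrp6 the difference was 18.0 points (4.61 to 31.0), from 68.7% to 50.7%. In Ctnnb1 it was 4.83 points (-7.81 to 18.1) and in Gsk3b 3.76 points (-10.8 to 18.7). In NPCs the Apc share with ΔZF1 was 55.6%, 8.49 points below WT (-6.14 to 22.7), and Tcf7l1 differed by 16.5 points (3.39 to 28.9). Without UV, Tcf7l1 had 15.3% uridine in NPCs (9.50 to 23.7). The differences between genes were not tested.

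**Figure D3:**
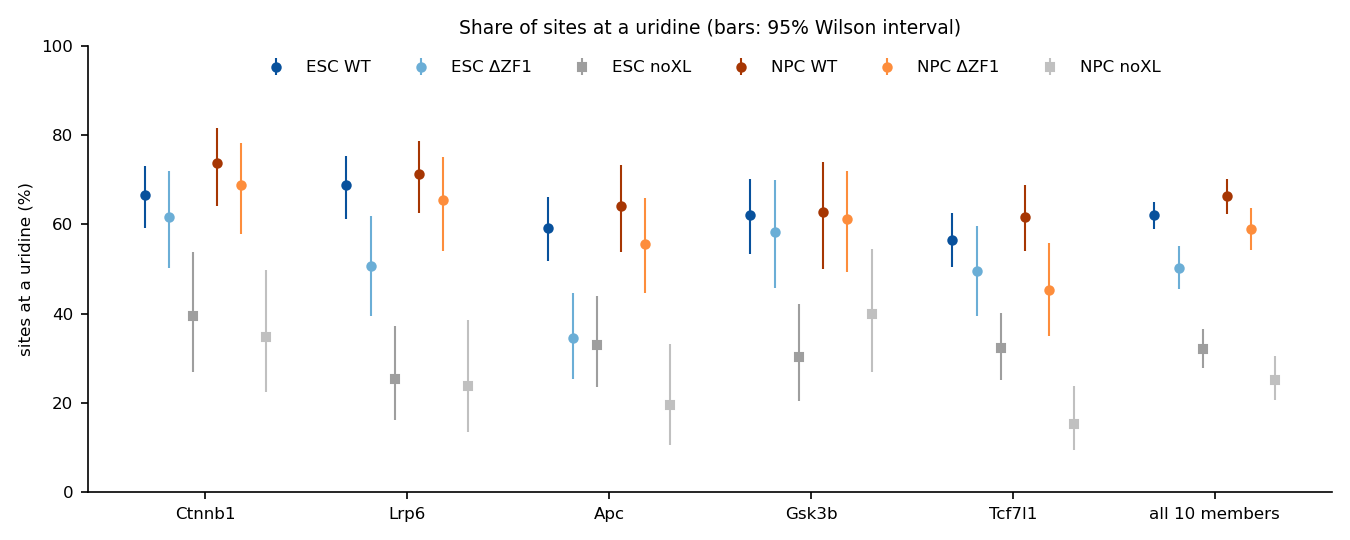
Percentage of sites at a uridine (y axis) for the 5 genes with most sites and for all 10 together, with 95% Wilson intervals, for the 6 lists. In Apc the ESC ΔZF1 point at 34.4% lies beside the ESC noXL point at 32.9%.

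**Figure D4:**
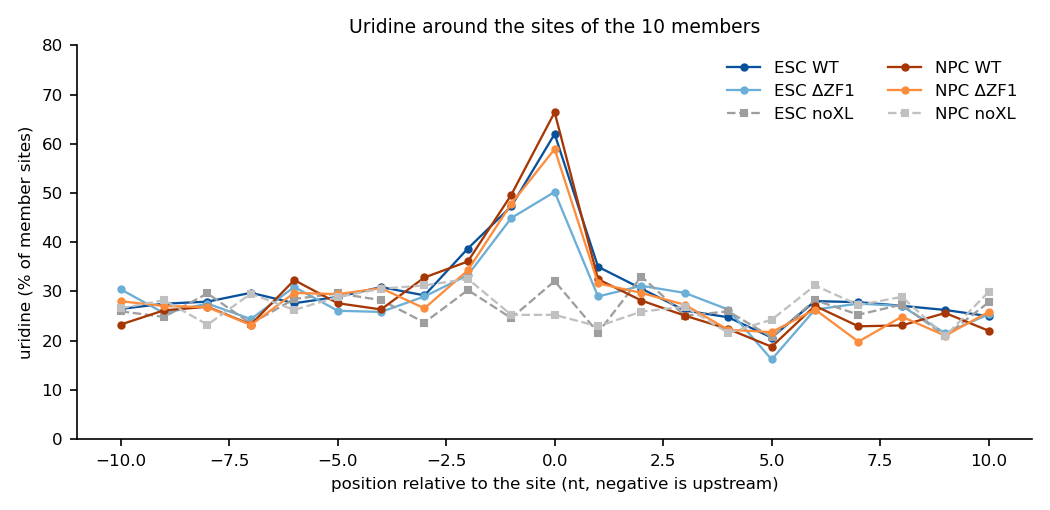
Percentage of member sites with a uridine (y axis) at each position from 10 nt upstream to 10 nt downstream of the site (x axis, nt), 1 line per list. The UV lists peak at the site and at the base before it, and the dashed noXL lines stay between 20.7 and 33.0%.

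The NPC to ESC comparison asked whether contacts with these RNAs changed on differentiation. Counts were set as a log2 ratio with a pseudocount of 1, with each list's genic total as the scale. A gene needed 20 sites over the compared lists, and 1 and -1 served as limits. With WT rescue, 0 of the 6 members compared passed a limit, against 22% of 6730 genes. Lrp6 was at 0.44 (0.09 to 0.77), Tcf7l1 at 0.26 (-0.03 to 0.54), Tcf7 at 0.16 (-0.72 to 0.98), Ctnnb1 at 0.04 (-0.33 to 0.39), Apc at -0.12 (-0.49 to 0.24) and Gsk3b at -0.16 (-0.62 to 0.27). The member median was 0.10 and the median of all genes 0.04. Unscaled, the median of all genes moved to -0.86, and Apc at -1.02 and Gsk3b at -1.06 lay past the lower limit.

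Axin2, the feedback target, fell below the minimum for this ratio with 1 site in NPC WT and 15 in ESC WT. Its scaled log2 ratio was -2.10 (-5.58 to -0.44), and the same ratio without UV was -0.44 (-2.04 to 0.89) from 5 and 11 sites. Axin1 was also under the minimum, at 10 and 7 sites, and its ratio was 1.36 (0.07 to 2.76). Without UV the Axin1 ratio was 0.70 (-0.54 to 1.98) from 10 and 9 sites.

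With ΔZF1 rescue, 0 of 6 members passed a limit, against 25% of 5113 genes. Gsk3b was at 0.66 (0.17 to 1.17), Ctnnb1 at 0.58 (0.12 to 1.04) and Lrp6 at 0.55 (0.08 to 1.009), with intervals above 0. Tcf7l1 at 0.39 (-0.03 to 0.82), Apc at 0.36 (-0.08 to 0.79) and Axin1 at -0.16 (-1.26 to 0.86) had intervals that include 0, and the member median was 0.47 against -0.08 over all genes. Without UV, 0 of 6 passed, against 23.4% of 3726 genes, and the member median was -0.02. In introns alone 1 of 5 members passed the upper limit with WT, Lrp6 at 2.13 from 33 and 17 sites, against 17.3% of 2048 genes. With ΔZF1 2 of 5 passed, Gsk3b at 2.44 from 37 and 7 sites and Lrp6 at 1.67 from 24 and 8, against 21.4% of 1623 genes. Without UV the introns of Lrp6 held 17 sites in ESC and 18 in NPC, and those of Gsk3b 33 and 25. None of the ESC counts behind these intron calls thus exceeded the count without UV.

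The ΔZF1 to WT comparison asked which contacts depend on zinc finger 1. In ESCs 7 members were compared and 2 passed a limit, against 12.3% of 6518 genes. Unscaled, the 6 members other than Axin1 all reached the lower limit, beside a shift of -0.94 in the median of all genes. Axin1 was higher with ΔZF1, at 2.23 (1.12 to 3.56), but on 25 sites in all. With 7 WT sites it reached the minimum only through ΔZF1, so its call was fixed by entry. These 7 sites lay below the 9 without UV, and its ΔZF1 to noXL ratio in ESCs was 0.40 (-0.66 to 1.60), within the limits. Tcf7 was lower, at -1.12 (-2.52 to -0.06), where the median of genes on chromosome 11 was -0.47. Of its sites, 26 of 29 with WT and 4 of 6 with ΔZF1 also lay in Gm26551, and without such sites it had too few for a comparison. Scaled to its own chromosome, Tcf7 was at -0.54, and with sites within 8 nt merged at -0.95, neither past the limit. Neither gene passed among uridine sites, where Axin1 had too few. The others were Tcf7l1 at -0.49 (-0.84 to -0.15), Ctnnb1 at -0.25 (-0.66 to 0.13), Lrp6 at -0.17 (-0.58 to 0.22), Gsk3b at -0.06 (-0.51 to 0.37) and Apc at -0.02 (-0.39 to 0.33).

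In NPCs 0 of 7 members passed a limit, against 13.1% of 5274 genes. Gsk3b was at 0.77 (0.27 to 1.27), Axin1 at 0.71 (-0.48 to 1.93), Apc at 0.45 (0.02 to 0.88), Ctnnb1 at 0.29 (-0.15 to 0.72), Tcf7 at 0.22 (-0.82 to 1.22), Lrp6 at -0.06 (-0.48 to 0.35) and Tcf7l1 at -0.35 (-0.74 to 0.02). The member median was 0.29 and that of all genes -0.04. Chromosome 11 genes again had a low median, -0.61.

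Within Gsk3b the exon share moved in opposite directions. In ESCs it was 62.1% with WT and 88.3% with ΔZF1, a difference of WT from ΔZF1 of -26.2 points (-36.8 to -13.0), as intron sites went from 47 to 7 and exon sites from 77 to 53. In NPCs it was 66.1% with WT and 44.8% with ΔZF1, a difference of 21.3 points (3.92 to 36.9), with intron sites going from 20 to 37 and exon sites from 39 to 30. Over all genic sites the exon share was 66.6% and 68.1% in ESCs and 73.1% and 60.4% in NPCs, so the NPC difference had the sign of the whole lists and the ESC difference was larger than theirs. The part of these list-wide shares in the Gsk3b values was not tested. The noXL lists held 33 intron and 33 exon sites of Gsk3b in ESCs, and 25 and 20 in NPCs. Intron counts of ΔZF1 in ESCs and of WT in NPCs thus lay below those without UV. The NPC exon share with ΔZF1 differed from noXL by 0.33 points (-18.0 to 18.3), and with WT by 21.7 (2.45 to 38.9). In ESCs these differences were 38.3 (22.6 to 51.5) and 12.1 (-2.55 to 26.3). The part of background sites in these shares was not tested. In Ctnnb1 the exon share was 16.9 points lower with ΔZF1 in NPCs (2.47 to 30.2), and in Lrp6 it differed by 0.529 points in ESCs (-7.21 to 10.49).

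**Figure D5:**
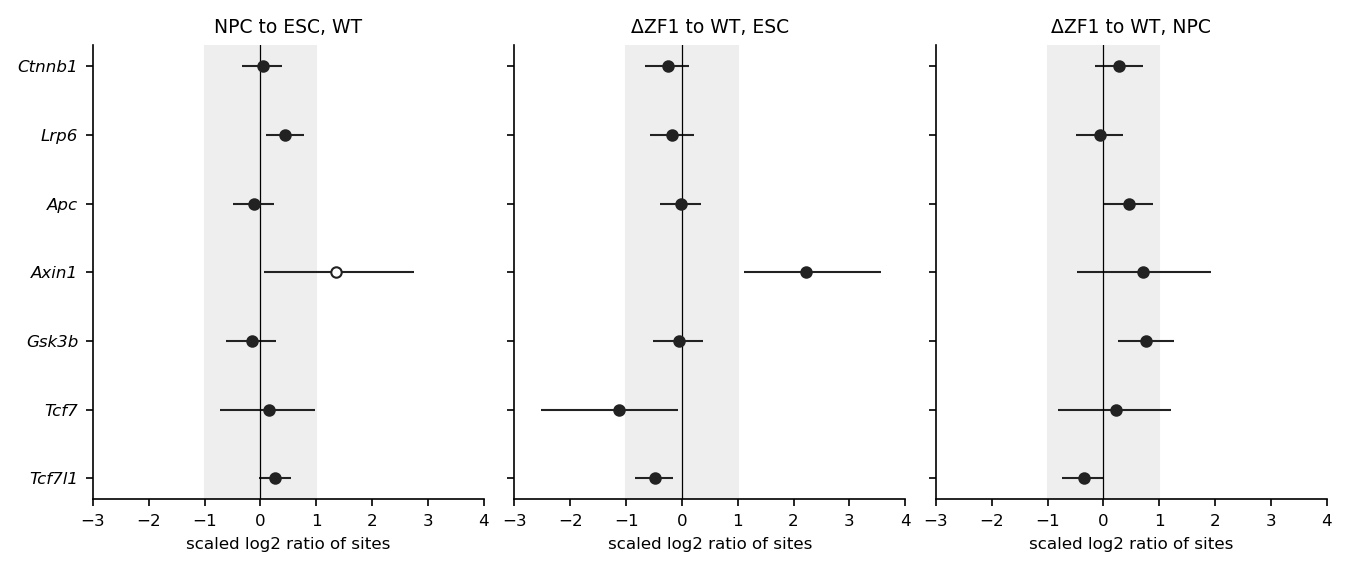
Scaled log2 ratio of sites (x axis) for 7 members in NPC to ESC with WT rescue and in ΔZF1 to WT in each cell type, with 95% counting intervals. The grey band spans the limits, the open circle marks a gene under the minimum of 20 sites, and Axin1 at 2.23 and Tcf7 at -1.12 lie outside it in ESCs.

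Against the noXL lists the 10 genes together took a smaller share of the WT lists. They held 22.0 of every 10000 genic sites in ESC WT and 29.1 in ESC noXL, and 24.1 and 29.5 in NPC. In ESCs 7 members were compared and 1 passed, Axin2 at -1.09 (-2.16 to 0.03), against 14.7% of 6208 genes in either direction, 8.12% higher and 6.6% lower. Tcf7l1 was at -0.75 (-1.04 to -0.45) and Gsk3b at -0.61 (-1.03 to -0.17). Ctnnb1 was the one member above 0, at 0.32 (-0.12 to 0.80). In NPCs 1 of 7 passed, Axin1 at -1.17 (-2.40 to 0.05) from 10 sites in each list, against 17% of 4765 genes in either direction and 6.51% lower. With 10 WT sites Axin1 needed as many without UV to reach the minimum, and equal counts scale past the limit. Its call was thus fixed by entry. Gsk3b was at -0.79 (-1.34 to -0.23). Lrp6 at 0.29 (-0.19 to 0.82) and Tcf7 at 0.19 (-0.97 to 1.63) were above 0 in NPCs, with intervals that include 0. Unscaled, every member compared in ESCs was above 0, so the direction depended on the scaling.

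For ΔZF1 against noXL in ESCs, 2 of 7 members passed, both lower, against 14.4% of 5013 genes in either direction, 7.86% higher and 6.56% lower. They were Tcf7 at -1.63 (-3.08 to -0.42) and Tcf7l1 at -1.24 (-1.62 to -0.87). With 6 ΔZF1 sites Tcf7 reached the minimum only through noXL, so its call was fixed by entry. Tcf7 rested on 6 and 14 sites, of which 4 and 12 also lay in Gm26551, and it could not be compared without those sites, with merged, uridine or exon sites or with a score minimum. Tcf7l1 was at -0.71 unscaled and at -0.80 with exon sites, short of the limit both times. In NPCs 0 of 6 passed, against 15.2% of 3699 genes in either direction, 7.19% higher and 8.03% lower, and Tcf7l1 was lowest at -0.81 (-1.23 to -0.39). The noXL cells expressed WT rescue, so line and UV cannot be told apart here.

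Few single positions were shared between lists. Of the 414 member sites in ESC ΔZF1, 16.9% (13.6 to 20.8) lay within 5 nt of an ESC WT site, against 5.19% when sites were shifted by 500 or 1000 nt. Such shifts can move an exon site into an intron, where sites were sparser. The shifted shares can therefore understate the sharing to be met within exons. In NPCs 8.45% (6.14 to 11.5) of ΔZF1 sites lay near a WT site, against 2.19% shifted. Of the NPC WT sites 22.0% (18.8 to 25.7) had an ESC WT site as close, against 3.88% shifted. Near noXL sites lay 4.66% of the ESC WT and 4.51% of the NPC WT sites, against 1.91 and 1.07% shifted. Over all genic sites the shares near a noXL site were higher, 7.67% in ESCs and 5.64% in NPCs with WT.

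The gene whose pattern over the 6 lists was most like that of Tcf7l1, among 1851 other genes with 200 or more sites, was Atp6v0a1, at a root mean square distance of 0.0955 on the log2 scale. Atp11a followed at 0.101 and Nptn at 0.170, and the median gene was at 0.558. The points share their lists and list depths.

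A wider list of 61 Wnt pathway genes gave the surroundings of the core. All were found in the annotation, Tle5 under its older symbol Aes, and 9 held no site. In NPC to ESC with WT rescue 36 could be compared, of which 10 were higher and 5 lower, against 11.5% and 10.4% of all genes, and their median was 0.43. Of these 15 genes, Wls, Fzd10, Tle5 and Cdx1 held 0 sites in one list, Kremen1 held 1 and Fzd2 held 6. They reached the minimum only through the other list, and their calls were fixed by entry. Of 9 receptors and ligand handling genes compared, 6 were higher and 2 lower, including Wls, Fzd2 and Fzd10 with calls fixed by entry. Wls, which carries Wnt proteins to the cell surface, had no ESC WT site and 28 sites with WT in NPCs. Among the Frizzled receptors Fzd7 went from 23 to 38 and Fzd2 from 6 to 18, while Fzd5 went from 91 to 19 and Fzd10 from 31 to 0. Without UV, Fzd7 held 10 sites in ESCs and 7 in NPCs, Fzd2 0 and 8, Fzd5 21 and 2, Fzd10 12 and 0 and Wls 0 and 6, so that all of these but Fzd7 differed in the same direction before scaling. The co-receptor Lrp5 went from 41 to 67 sites, at 1.59 (1.05 to 2.16), beside 0.44 for its relative Lrp6. Fzd3, at 1.37, and the receptor kinase Ror2, at 1.71, were the remaining receptors that were higher. Without UV, Lrp5 held 26 sites in ESCs and 28 in NPCs, Fzd3 3 and 8 and Ror2 20 and 17. The 19 ESC WT sites of Ror2 were thus no more than its sites without UV, and its WT to noXL ratio was -1.58 in ESCs.

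Outside the receptors, Kremen1, a receptor of the Dkk inhibitors, went from 1 to 25 sites, and Dvl1, which relays the receptor signal, from 10 to 17. Csnk1g2, a casein kinase, was at 1.05 and the co-repressor Tle3 went from 11 to 24 sites. Without UV, Kremen1 held 4 sites in ESCs and 6 in NPCs, Dvl1 16 and 8, Csnk1g2 21 and 8 and Tle3 9 and 18. Dvl1 thus went the other way without UV, and its ESC WT count lay below the count without UV, at a WT to noXL ratio of -2.14. Tle4, a relative of Tle3, went from 171 sites to 16 (52 and 24 without UV), Tle5 from 29 to 0 and Cdx1, a target gene, from 26 to 0. Of the 15 genes past a limit, 7 could be compared without UV, where Fzd5 at -2.31 and Tle3 at 1.49 passed the same limit. Cdx1 held 9 sites in ESC noXL and 0 in NPC noXL, and Tle5 9 and 1. Of 6 destruction complex partners compared none passed a limit, too few genes to set against the 22% of all genes. The genes of the list with most ESC WT sites were the kinase Csnk1a1 with 344, the ubiquitin ligase Znrf3 with 305 and the phosphatase subunit Ppp2ca with 191.

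In ΔZF1 to WT, 7 of 34 genes of this list were higher and 2 lower in ESCs, against 6.84% and 5.45% of all genes, with a median of 0.16. The higher ones were Fzd7, Dvl1, Dvl3, Csnk1e, Pygo2, Tle3 and Cdx1, from 1.02 for Csnk1e to 2.39 for Tle3. Dvl3, with 9 WT and 12 ΔZF1 sites, reached the minimum only through ΔZF1, so its call was fixed by entry. In several of them the WT count was close to or below the count without UV, 10 and 16 in Dvl1, 9 and 9 in Dvl3 and 11 and 9 in Tle3. Against noXL the ΔZF1 ratio passed the upper limit in Tle3 at 1.15 and Cdx1 at 1.76, and lay within the limits in the others, from -0.30 for Dvl1 to 0.87 for Fzd7. The lower ones were Znrf3, which removes Frizzled receptors from the membrane, at -1.85 (-2.35 to -1.42) from 42 and 305 sites, and Fbxw11, which recognises marked β-catenin, at -1.16 (-1.81 to -0.60). Both lie on chromosome 11, as Tcf7 does, where the gene median was -0.47. Scaled to that chromosome, Znrf3 was at -1.27 and Fbxw11 at -0.58, no longer past the limit. Of the higher genes, Csnk1e at 0.93 and Pygo2 at 0.96 also fell short when scaled to their own chromosomes. In NPCs 4 of 34 were higher, Ryk, Lgr4, Tle4 and Tnfrsf19, and 3 lower, Csnk1g2 at -1.03, Gsk3a at -1.07 and Hdac1 at -1.09, against 5.76% and 7.36% of all genes, with a median of -0.20. Tnfrsf19 reached the minimum only through ΔZF1, so its call was fixed by entry. For Tle4 the ΔZF1 list held 53 NPC sites where WT held 16 and noXL 24.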

How the data were processed

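Site lists were those the authors deposited, 1 for each group of merged libraries. Reads had been demultiplexed with Flexbar, aligned to mm10 with STAR and freed of PCR duplicates with UMI-tools, and PureCLIP called crosslinked bases. The deposited value is the PureCLIP score, which is not scaled to depth. Versions of these tools are not given in the sources used here. The number of reads is unknown.

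Autosomal, X and Y sites were assigned to GENCODE M21 genes on their strand. Exon and intron numbers follow the principal transcript. Where transcripts differed, coding sequence took precedence over UTRs, and any exon over introns. Sequences came from GRCm38 RefSeq. Overlapping sites counted for each gene. Gene names followed a fixed rule: the 10 members, listed Wnt genes past a limit with WT between cell types or between rescue proteins and the 3 with most ESC WT sites, the 3 genes nearest the member with most WT sites, each member's best WT site and places found in all UV lists, from which the sequences shown were taken. Members, lists and limits were chosen with earlier results of these data known. Python 3.11.15, numpy 2.4.6, pandas 2.3.3 and scipy 1.17.1 were used, and the ratios were tested on simulated data.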

Additional observations from a re-analysis of the deposited data

Results flagged for a closer look

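Gsk3b had ΔZF1 to WT ratios of opposite sign in ESC and NPC, -0.06 (-0.51 to 0.37) and 0.77 (0.27 to 1.27) on the scaled log2 scale. The ESC interval includes 0, so its sign is open. Its ΔZF1 to noXL ratios were -0.67 (-1.17 to -0.17) in ESCs and -0.02 (-0.55 to 0.53) in NPCs. The NPC value of ΔZF1 to WT was higher than the ESC value by 0.82 (0.16 to 1.49, counting error only). With 1 pooled list per group this difference was not tested.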

How the results depend on the processing

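No paired analysis was possible because each group was deposited as 1 merged list without replicate numbers, nor could single libraries be removed. Of 103 alternatives for the number of members past a limit, 75 stayed within 1.5 times of the reported number, but 8 of these had other members past the limits. Without scaling, 2 members passed in NPC to ESC with WT (Apc and Gsk3b, lower) and 1 without UV (Tcf7). In the same setting 7 passed in ΔZF1 to WT in ESCs, 4 ESC and 3 NPC members in WT to noXL, and 1 in ΔZF1 to noXL in ESCs. Axin2 then turned to 0.42 in WT to noXL in ESCs. With intron sites alone, 1 passed in NPC to ESC with WT (Lrp6), 2 with ΔZF1 (Lrp6 and Gsk3b) and 1 in ΔZF1 to WT in ESCs (Gsk3b). With uridine sites alone, 1 passed in NPC to ESC without UV (Tcf7l1) and 0 in ΔZF1 to WT in ESCs. The 2 calls of ΔZF1 to WT in ESCs became 0 with a score minimum of 3.02 or a gene minimum of 50 sites. They became 1 with own-chromosome scaling, with sites within 8 nt merged, without sites shared with another gene (Axin1 each time) and with exon sites alone (Tcf7). The call in WT to noXL became 0 in both cell types with a minimum of 50, merged sites or exon sites, and 0 in NPCs with the score minimum. The ESC call passed from Axin2 to Tcf7l1 with the score minimum or uridine sites and to Lrp6 with intron sites. The NPC call passed from Axin1 to Gsk3b with uridine sites and to Apc, higher, with intron sites. In ΔZF1 to noXL in ESCs 1 call, Tcf7l1, was left with a minimum of 50, merged sites or no shared sites, and 0 with exon sites. There Tcf7 also lost its call with the score minimum (Gsk3b and Tcf7l1 passed), uridine sites (Apc and Tcf7l1) and intron sites (Gsk3b, Lrp6 and Tcf7l1). The causes were not tested.

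With the score minimum the uridine share in ESC WT was 68.0%, and the exon shares were 63.7% in ESC WT and 55.5% in NPC WT. Shared positions followed the distance allowed. At 0, 2, 10 and 50 nt, 6.28, 11.8, 24.2 and 59.4% of ESC ΔZF1 sites lay near WT, 11.0, 17.1, 28.0 and 52.9% of NPC WT sites near ESC WT, and 1.59, 2.86, 7.51 and 29.0% of ESC WT sites near noXL. For NPC ΔZF1 near WT the shares were 3.62% at 0, 11.8% at 10 and 31.6% at 50 nt, and for NPC WT near noXL 1.44% at 0, 2.89% at 2 and 17.9% at 50 nt. With the score minimum they were 12.4% for ESC ΔZF1, 4.17% for NPC ΔZF1 and 7.11% for NPC WT near noXL. Of 605 alternatives for the ratio of a single member, 518 stayed within the counting interval, 86 moved further and in 1, that of Axin2 above, the call was lost and the sign turned. Read depth per list is unknown, so a low count can reflect depth, RNA level or contact.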
